A study of Mus musculus with 21 samples.

Results

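Cassette exons are internal exons that some transcripts of a gene include and others skip, and those examined here can be skipped without shifting the reading frame. They were taken from the mm9 annotation of GENCODE (release vM1) as exons longer than 51 nt with a length divisible by 3, included in 1 transcript while another transcript of the gene joins the same flanking splice sites directly. An exon counted as measured where the transcripts that include or skip it summed to at least 1 TPM, the length-normalized unit of the deposited tables, in every library of a cell type. By this rule 3093 frame-preserving exons of 2297 genes were measured, of 7669 measured cassette exons in all, of which 3512 shift the frame and 1064 are no longer than 51 nt. At the length limit 77 measured exons of 54 nt lay just inside and 60 of 51 nt just outside. At the TPM limit, 26 md and 49 ES events had a lowest sum between 1 and 1.1 TPM, and 31 md and 41 ES events one between 0.9 and 1 TPM. Another 1630 annotated exons of the kind did not reach the limit.

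The libraries came from 2 kinds of mouse cells, each labelled as Rbm10 knockout or wild type. Inclusion was read from RNA-seq of polyadenylated RNA in 4 Rbm10 knockout (KO) lines of md MEPA cells, a mandibular line from pharyngeal arches of 11.5 dpc embryos of a CD1 and Immortomouse cross, against 3 samples of wild-type (WT) md MEPA cells. All md cells were grown at 33 °C with 100 U/ml murine interferon. KO1 and KO2 are CRISPR/Cas9 lines deleted in exon 3 of Rbm10, and KO3 and KO4 in exon 9. ES cells were 3 samples of the male gene trap line Rbm10Gt(CSI176)Byg, here ES KO, against 3 of its parental line E14Tg2a.4, here ES WT, all on gelatin with LIF. Each ES group is thus 1 line. Binding was read from iCLIP of endogenous RBM10 in md MEPA cells, with 4 libraries of an antibody that recognises both RBM10 isoforms against 4 of rabbit IgG, after 400 mJ/cm2 of UV light at 254 nm. ICLIP of ES cells was not analysed here, so every crosslink count below is from md cells.

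RBM10 is an X-linked RNA-binding protein with RNA recognition motifs and zinc fingers that associates with the spliceosome, and in human cells it is best known for promoting the skipping of cassette exons. An internal exon is defined by the 3' splice site before it, with its polypyrimidine tract and branch point, and by the 5' splice site after it. Skipping an exon of a length divisible by 3 within the coding sequence removes a block of amino acids and leaves the downstream frame intact. In iCLIP, RNA and protein are joined by UV irradiation of intact cells, and the place where reverse transcription stops at the remaining peptide gives the crosslinked nucleotide.

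The RBM10 libraries held between 774816 and 2847066 crosslinks and the IgG libraries between 103017 and 2214515. The RBM10 libraries shared a lane and the IgG libraries another, and the effects of lane and of antibody cannot be told apart. Rbm10 itself had 23.2 and 19.7 TPM in md KO1 and KO2 and 7.20 and 3.49 TPM in KO3 and KO4, against 21.4, 23.2 and 23.7 TPM in md WT. For KO1 and KO2 the summed level is thus no check of the label. ES KO samples had 4.27, 3.63 and 4.25 TPM of Rbm10, against 32.5, 33.5 and 32.2 TPM in ES WT. All 10 pluripotency markers were at 1 TPM or more in every ES library. Of 11 mandibular arch markers found, 6 were in every md KO and 7 in every md WT library, and 1 was at 0 in all libraries of each md group. In bulk samples like these, fewer cells of a type and less RNA per cell cannot be told apart.

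The intron before 4 of these exons is shown because it held many RBM10 crosslinks and lets the contacted letters be read. The exon of Rbm26 (an RNA-binding protein) was called in ES cells, and that of Mfge8 (a secreted glycoprotein that binds phosphatidylserine) had separate KO and WT groups in both cell types without passing the test. Uba3 (the catalytic subunit of the NEDD8-activating enzyme) and Deaf1 (a transcription factor) were included at 100% in every group. Each line gives 100 intron bases and the first 10 exon bases, 5' to 3' on the transcribed strand of mm9, and capitals mark nucleotides crosslinked in at least 2 RBM10 libraries. The windows are chr14:105538370-105538479, chr7:86288265-86288374, chr6:97151982-97152091 and chr7:148487579-148487688, all on the minus strand.
Rbm26 upstream intron: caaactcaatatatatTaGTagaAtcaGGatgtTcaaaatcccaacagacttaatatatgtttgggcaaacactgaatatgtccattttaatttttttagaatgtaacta
Mfge8 upstream intron: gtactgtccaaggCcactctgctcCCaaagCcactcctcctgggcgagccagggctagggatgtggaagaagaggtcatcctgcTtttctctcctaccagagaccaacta
Uba3 upstream intron: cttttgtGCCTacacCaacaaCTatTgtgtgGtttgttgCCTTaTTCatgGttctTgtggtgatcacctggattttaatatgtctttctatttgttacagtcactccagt
Deaf1 upstream intron: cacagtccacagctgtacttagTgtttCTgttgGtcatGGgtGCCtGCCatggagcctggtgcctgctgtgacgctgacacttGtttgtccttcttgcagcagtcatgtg
In Rbm26, 42 of the window's 70 RBM10 crosslinks fell on its 7 capital letters, and the G at position -72 from the exon's first base held 19 in all 4 libraries. Mfge8 had 22 of 51 on 5 letters, with 12 crosslinks in all 4 libraries on the C at -76. Uba3 had 230 of 248 on 18 letters, of which 7 were C, 8 T and 3 G, and 79 on the C at -91 alone. Deaf1 had 71 of 92 on 13 letters. The IgG libraries held 0 crosslinks in the 100 intron bases of each of the 4 windows.

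Among the called exons that lie wholly in coding sequence, the 5 with the largest differences in ES cells are shown, because their whole sequence is gained or lost. Capitals mark the exon, lower case 10 intron bases on each side, 5' to 3' on the transcribed strand of mm9.
Tubd1 exon: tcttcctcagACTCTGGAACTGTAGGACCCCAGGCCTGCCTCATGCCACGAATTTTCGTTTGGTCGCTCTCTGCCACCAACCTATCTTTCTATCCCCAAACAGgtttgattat
Sbf2 exon: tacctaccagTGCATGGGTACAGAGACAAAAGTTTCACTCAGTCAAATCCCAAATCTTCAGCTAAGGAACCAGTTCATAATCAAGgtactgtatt
Rbm26 exon: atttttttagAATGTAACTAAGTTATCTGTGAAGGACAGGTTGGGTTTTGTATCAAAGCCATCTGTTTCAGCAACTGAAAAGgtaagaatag
Oxr1 exon: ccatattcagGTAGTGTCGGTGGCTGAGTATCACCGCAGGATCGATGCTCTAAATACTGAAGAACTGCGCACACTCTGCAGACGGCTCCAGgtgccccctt
Fam69a exon: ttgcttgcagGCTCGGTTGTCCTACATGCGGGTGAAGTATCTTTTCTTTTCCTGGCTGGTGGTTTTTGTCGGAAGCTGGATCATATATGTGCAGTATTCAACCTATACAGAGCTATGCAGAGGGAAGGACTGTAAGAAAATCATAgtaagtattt
These exons lie at chr11:86370197-86370289 on the plus strand, chr7:117484804-117484878 on the minus strand, chr14:105538308-105538379 on the minus strand, chr15:41680216-41680296 on the plus strand and chr5:108353604-108353738 on the minus strand. They have the length of 31, 25, 24, 27 and 45 codons and are coding throughout in at least 1 annotated transcript.

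As a group the exons were short, coding and spliced at standard sites. Their median length was 111 nt (quartiles 81 and 153), and 126 of them exceeded 300 nt. In all 2239 (72.4%) lay wholly within coding sequence, against 51.7% of the frame-shifting exons, and 17.1% lay wholly outside it, against 31.0%. Transcripts that skip the exon were annotated for nonsense-mediated decay at 8.37% of frame-preserving exons, against 25.9% of frame-shifting ones. For transcripts that include the exon the shares were 17.7% and 23.8%. The intron before ended in AG at 99.6%, and the intron after began with GT at 98.1% and GC at 1.55%. The last 20 nt before the exon were pyrimidines at a median of 65%.

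Inclusion was given as the percent spliced in (PSI), the TPM of including transcripts over that of including and skipping transcripts. PSI is a share within a library, and it depends on how the authors' quantifier divided reads among transcripts. Library medians lay between 60.7% and 61.9% in md KO and between 60.7% and 61.3% in md WT. In ES cells they lay between 59.0% and 60.8% in KO and between 59.5% and 60.1% in WT. PSI exceeded 95% for 23.5% to 24.5% of events in md KO and 23.4% to 23.7% in md WT, and for 28.2% to 29.2% in ES KO and 28.9% to 29.7% in ES WT. The KO and WT ranges overlapped for the median and the share over 95% in both cell types. In ES cells they did not overlap for the share under 5%, at 19.7% to 20.4% in KO and 20.4% to 20.8% in WT with the highest KO library just below the lowest WT library, or for the share from 5 to 95%, at 51.1% to 51.5% in KO and 49.8% to 50.4% in WT. In md cells both shares overlapped. The frame-shifting exons were apart in ES cells too, with 22.25% to 22.81% in KO and 22.84% to 23.30% in WT under 5%. From 5 to 95% they had 50.2% to 50.4% in KO and 49.3% to 49.6% in WT. Exons of up to 51 nt were apart under 5% and overlapped from 5 to 95%. The separation in ES cells was thus not particular to frame-preserving exons.

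RBM10 libraries exceeded the IgG background in the introns beside the exons, and not detectably within them. The 100 nt before the exons held 0.305%, 0.250%, 0.497% and 0.420% of the crosslinks of the 4 RBM10 libraries, against 0.0639%, 0.0475%, 0.0631% and 0.0392% of those of the IgG libraries. Every RBM10 library was above every IgG library, with means of 0.368 ± 0.111% and 0.0534 ± 0.0121% (SD, n = 4 each) and a ratio of 6.88. The 100 nt after the exons held 0.238 ± 0.0575% in RBM10 and 0.0552 ± 0.0113% in IgG libraries, a ratio of 4.30, again with no overlap. The exons themselves held 0.179 ± 0.0121% in RBM10 and 0.169 ± 0.0238% in IgG libraries, a ratio of 1.06, and the groups overlapped. Of all crosslinks in these regions, 46.2 ± 4.88% in RBM10 and 19.2 ± 2.66% in IgG libraries lay before the exon, and 23.7 ± 6.10% and 61.1 ± 3.50% within it. The Wilson 95% interval of the smallest upstream share, in IgG 4, was 0.0306% to 0.0503%. Such intervals cover counting error only.

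**Figure D1:**
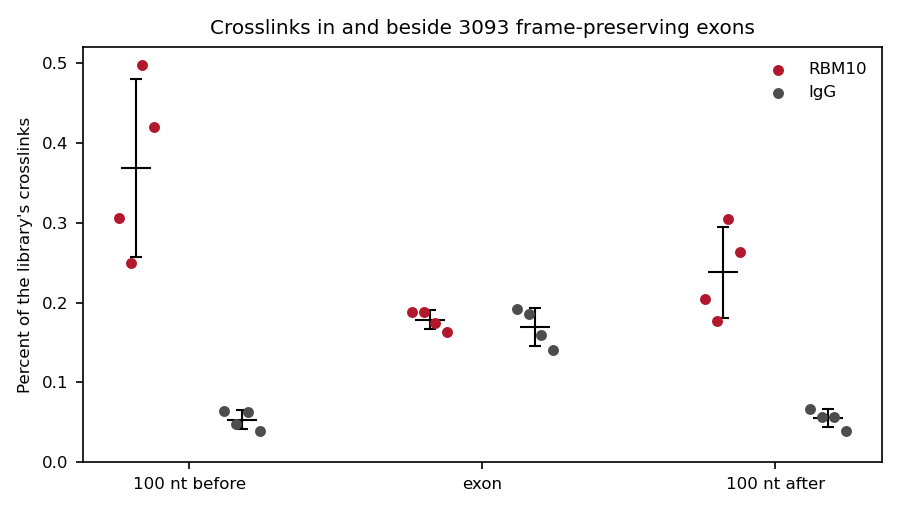
Percent of each library's crosslinks (y axis) in the 100 nt before, within and in the 100 nt after 3093 frame-preserving cassette exons, 1 point per library with mean and SD in black, RBM10 left and IgG right. The RBM10 points lie above all IgG points beside the exon, at ratios of 6.88 and 4.30, and among them within the exon.

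These ratios were smaller, and in the same direction, with fewer libraries. Without RBM10 3 the upstream ratio was 6.08 and the downstream ratio 3.89, and in the deeper pairs 1 and 2 alone they were 4.98 and 3.09. Over the 2180 exons whose flanks hold no other annotated exon they were 6.37 and 4.50, with 0.861 in the exon. Frame-shifting exons, side by side, had ratios of 5.41 before, 1.06 in and 3.83 after the exon. The difference between the classes was not tested. The density, in crosslinks per kilobase per 1000000 crosslinks of the library (CPM per kb), was in RBM10 libraries 12.2 ± 3.70 before the exon, 3.70 ± 0.250 within it and 7.92 ± 1.92 after it, against 1.78 ± 0.402, 3.50 ± 0.492 and 1.84 ± 0.377 in IgG libraries (SD, n = 4 each).

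The upstream crosslinks peaked well before the splice site. Across the 2180 exons with clean flanks, positions -80 to -61 from the exon's first base, numbered 0, held 826 ± 274 CPM in RBM10 and 60.6 ± 24.7 CPM in IgG libraries (SD, n = 4 each), a ratio of 13.6 and the highest among the 14 bins of 20 nt. The neighbouring bins at -100 to -81 and -60 to -41 had ratios of 9.50 and 7.43. The ratio was 2.55 at -40 to -21 and 1.5 at -20 to -1, the stretch of the polypyrimidine tract, and 0.972 in the first 20 nt of the exon. The single most crosslinked upstream position was -61 in RBM10 1, 3 and 4 and -65 in RBM10 2. After the exon the ratio lay between 3.17 and 5.47 in all 5 bins.

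**Figure D2:**
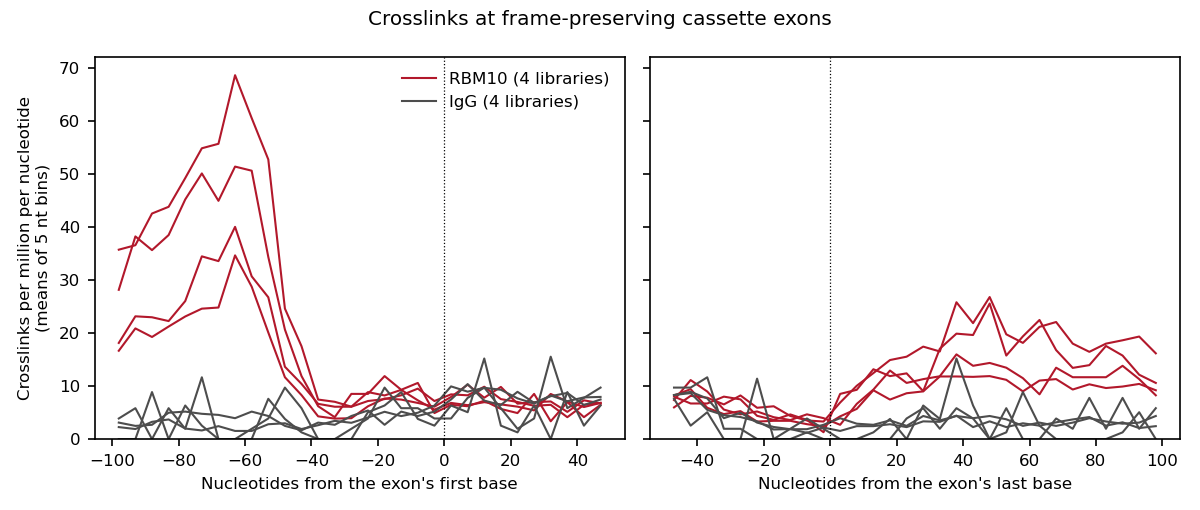
Crosslinks per 1000000 per nucleotide (y axis, means of 5 nt bins) along distance in nucleotides from the exon's first base (left) and last base (right) for 2180 frame-preserving exons with clean flanks, 1 line per library. All 4 RBM10 lines rise between about -100 and -41 before the exon, where the bin at -80 to -61 has 826 CPM against 60.6 CPM in IgG, and meet the IgG lines at the exon.

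The base under the crosslink also differed. In the 100 nt before the exons C was the crosslinked base in 49.8%, 48.9%, 52.2% and 51.3% of crosslinks of the RBM10 libraries, against 24%, 14.6%, 30.8% and 8.06% in the IgG libraries, without overlap. T was the base in 29.1% to 34.3% in RBM10 and 50.8% to 61.3% in IgG libraries. The windows themselves are 23.2% C and 33.2% T. IgG 3 and IgG 4 rest on only 65 and 62 crosslinks there. Positions were taken as deposited.

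RBM10 crosslinks were spread over many exons, mostly in small numbers. Within the exon and its flanks 2636 of 3093 exons (85.2%) had at least 1 RBM10 crosslink, 1172 had one in all 4 RBM10 libraries and 293 had 50 or more, with a median of 8. IgG crosslinks were found at 1950 exons, and at 27 in all 4 IgG libraries. The RBM10 libraries together held 7582304 crosslinks and the IgG libraries 3440608, so these exon counts differ in depth. A test per exon with edgeR's quasi-likelihood method, library totals as sizes and adjustment over all cassette exons, could be run on 86 of the exons. Of these 63 were higher in RBM10 and 4 lower, where 76.6% of the 218 cassette exons tested were called higher. The median log2 ratio was 2.66 for the frame-preserving exons and 2.67 for all tested. The filter on low counts was passed mainly through the RBM10 libraries, 63 exons reaching its level in all 4 of them and 7 in all 4 IgG libraries, so these counts describe what was tested and support nothing. With at least 10 crosslinks over all libraries as the filter, 1622 exons were tested, 625 were higher and 6 lower, against 39.8% higher of all 4009 tested. This filter too leans on RBM10, whose libraries held 61714 crosslinks at the exons against 10554 in IgG. With at least 5 IgG crosslinks instead, which selects on the IgG side, 116 of 632 were higher and 4 lower. The median log2 ratio was then 0.37, beside 266 higher of 1474 and 0.44 for all cassette exons.

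The scaling matters to these calls. With TMM factors the median of the 218 exons was 0.89, and 22 frame-preserving exons were higher and 18 lower. The share of higher calls was then 55.0%, against 94.0% with library totals. With the replicate numbers as a block 59 were higher and 1 lower. Leaving out IgG 1, 3 or 4 raised the calls to 111, 114 and 117, as more exons then passed the filter.

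Among the exons of lowest p in the crosslink test, several had nearly all of their contacts upstream. Uba3 (81 nt, chr6:97151911-97151991) had 26, 65, 133 and 30 crosslinks in the RBM10 libraries and 0, 1, 0 and 0 in the IgG libraries, 248 of the 254 RBM10 crosslinks lying before the exon. Deaf1 (90 nt, chr7:148487499-148487588) had 13, 31, 39 and 19 in RBM10 libraries and 0 in every IgG library, at least 15.4-fold higher against a floor of 3 counts over the IgG group, with 92 of 102 before the exon. PSI of both was 100% in all 4 RNA-seq groups. Cbfb (96 nt), which encodes core-binding factor beta, had 42, 95, 138 and 25 in RBM10 libraries against 6, 2, 0 and 0 in IgG libraries, with 277 before the exon. Rexo4 (75 nt), an exonuclease-domain protein, had 17, 48, 94 and 23 in RBM10 libraries against 0 in every IgG library, at least 27.5-fold higher, with 177 before the exon. Its PSI was 83.5 ± 3.97% in md KO (SD, n = 4) and 79.7 ± 3.16% in md WT (n = 3), a difference of 3.76 points (limma adjusted p = 0.732). The flanks of Cbfb and Rexo4 overlap other annotated exons, so crosslinks there need not all be intronic. Those of Uba3 and Deaf1 do not.

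Other exons of low p or high counts had contacts in the exon or after it as well. Both filamin genes, which encode actin crosslinkers, stood among them: Flnc (99 nt) had 50, 107, 183 and 59 crosslinks in RBM10 against 5, 5, 0 and 0 in IgG libraries, and Flna (174 nt) 103, 193, 322 and 74 in RBM10 against 21, 20, 1 and 2 in IgG libraries. Flna's log2 ratio was 2.71, but -0.25 within the exon alone. Actb (cytoplasmic beta-actin) had an exon of 63 nt with 245, 421, 628 and 202 in RBM10 libraries against 30, 14, 2 and 0 in IgG libraries, whose flanks overlap other annotated exons. Its 240 nt exon had a log2 ratio of 1.07 (edgeR adjusted p = 0.0227), which was -0.40 with TMM factors and -1.18 within the exon. Acbd4 (135 nt), Lrrc42 (57 nt) and Luc7l3 (66 nt, a splicing factor) had 128 of 139, 98 of 100 and 277 of 306 RBM10 crosslinks after the exon. Hnrpdl (105 nt) encodes an hnRNP, and its exon had 51, 121, 243 and 55 in RBM10 libraries against 3, 15, 2 and 0 in IgG libraries. The flanks of Flna, the 240 nt Actb exon, Acbd4, Luc7l3 and Hnrpdl also overlap other annotated exons. Both Actb exons lie less than 100 nt apart, so their windows share positions.

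The 4 exons called lower in RBM10 without a replicate block were long, and the block kept 1 of these calls. Plec (3381 nt), which encodes the cytoskeletal linker plectin, had 102, 304, 88 and 15 crosslinks in RBM10 and 157, 337, 16 and 14 in IgG libraries, 465 of 509 RBM10 crosslinks being in the exon. Its log2 ratio was -1.17 (SE 0.42, edgeR adjusted p = 0.0077). Slc39a6 (825 nt, a zinc transporter), Rtn4 (2361 nt, a reticulon of the endoplasmic reticulum) and Son (5970 nt, a nuclear speckle protein) had log2 ratios of -1.39, -1.09 and -0.89. With the replicate number as a block, which pairs each RBM10 library with its IgG control, Plec alone was still called (-1.31, edgeR adjusted p = 0.00082). Slc39a6, Rtn4 and Son then had edgeR adjusted p of 0.1002, 0.115 and 0.0562.

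In ES cells the exons that passed the test were mostly included more in KO. Of 1517 events tested with limma on PSI, 10 (0.659%) were called, at an adjusted p under 0.05 and a difference of at least 10 points. Among all 3757 cassette events 0.452% were called. Inclusion was higher in KO for 9 of the 10 exons and lower for 1, where 0.346% of all events were called higher. The 9 include an exon of the trapped gene Rbm10 itself, whose including form did not separate the groups. Groups did not overlap for 180 exon events higher in KO (11.9%) and 153 lower (10.1%), near the 11.2% and 10.2% of all cassette events. With a difference of at least 10 points as well, 84 were higher (5.54%) and 54 lower (3.56%), against 5.35% and 4.34% of all events. The median difference was 0.09 points and the quartiles -4.04 and 4.13. The calls rest on few libraries. Without KO 1, 5 events were called, without KO 2 or KO 3, 1 each, and without any 1 WT library 0, with 162, 160 and 234 events then at an unadjusted p under 0.05. With the replicate numbers as a block 0 were called, with 198 at an unadjusted p under 0.05. Differences of the 10 exons kept their sign in all 144 refits, which is no test, since groups without overlap fix the sign in advance.

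Tubd1, which encodes delta-tubulin of the centriole, changed most. Its 93 nt exon had a PSI of 73.2%, 82.7% and 84.9% in the ES KO samples and 11.9%, 8.0% and 11.2% in the ES WT samples. The groups lay far apart, with means of 80.2 ± 6.23% and 10.4 ± 2.09% (SD, n = 3 each), a difference of 69.9 points (SE 3.96, limma adjusted p = 0.0046). Including transcripts had 2.54, 2.88 and 3.25 TPM in ES KO and 0.351, 0.207 and 0.353 TPM in ES WT. Skipping transcripts had 0.931, 0.604 and 0.579 TPM in ES KO and 2.59, 2.39 and 2.81 TPM in ES WT, so the including form was the larger in every KO sample and the smaller in every WT sample. RBM10 libraries held 3 crosslinks at this exon and IgG libraries 0.

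Rbm26 held the called exon with most RBM10 crosslinks. Its 72 nt exon had a PSI of 79.0%, 81.4% and 81.8% in ES KO and 44.8%, 50.4% and 43.4% in ES WT. The difference was 34.5 points (SE 3.14, limma adjusted p = 0.0246), with no overlap. Including transcripts had 21.8, 23.2 and 24.7 TPM in ES KO and 9.73, 11.2 and 10.1 TPM in ES WT, and skipping transcripts 5.80, 5.28 and 5.50 TPM in ES KO and 12.0, 11.1 and 13.2 TPM in ES WT. In md cells the RBM10 libraries held 11, 23, 38 and 13 crosslinks there, 69 of the 85 before the exon, and the IgG libraries 2 in all. No called exon passed the filter of the crosslink test.

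Sbf2, a DENN-domain pseudophosphatase of the myotubularin family, had a 75 nt exon with a PSI of 77.4%, 76.8% and 79.2% in ES KO and 38.9%, 31.6% and 24.3% in ES WT. The difference was 46.2 points (SE 4.30, limma adjusted p = 0.0246). A 96 nt exon of the same gene, chr7:117491401-117491496, had 39.7%, 44.2% and 46.4% in ES KO and 24%, 25.9% and 14% in ES WT, 22.2 points apart (limma adjusted p = 0.0848), and was not called. Both events share the same skipping transcripts, at 1.86 to 2.36 TPM in ES KO and 5.83 to 7.34 TPM in ES WT, so they are not independent. The 75 nt exon had 10 RBM10 crosslinks and the 96 nt exon 0.

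Madd and Oxr1 carried coding exons that were scarce in WT. Oxr1, of the oxidation resistance family, had 38.4%, 29.5% and 36.6% in ES KO and 7.43%, 11.8% and 12.0% in ES WT at its 81 nt exon (24.4 points, SE 3.16, limma adjusted p = 0.0464). Madd, like Sbf2 a DENN-domain protein, had 27.9%, 26.3% and 21.5% in ES KO and 6.34%, 7.19% and 1.38% in ES WT at its 60 nt exon (chr2:91004120-91004179; 20.3 points, SE 2.70, limma adjusted p = 0.0486). Madd's including transcripts were scarce, at 0.495 to 0.537 TPM in ES KO and 0.037 to 0.179 TPM in ES WT. Its call was lost in 12 of 14 refits. Oxr1 held 18 RBM10 and 3 IgG crosslinks and Madd 3 and 0.

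Rbm10 itself was among the called genes. Its 231 nt exon (chrX:20214552-20214782) had 17.0%, 20.9% and 15.9% in ES KO and 2.99%, 1.09% and 1.92% in ES WT, 15.9 points apart (SE 2.00, limma adjusted p = 0.0447). Including transcripts stayed at 0.674 to 0.757 TPM in ES KO and 0.365 to 0.969 TPM in ES WT. Skipping transcripts had 2.87 to 3.58 TPM in ES KO and 31.5 to 33.1 TPM in ES WT. The ranges of the including form overlapped and those of the skipping form did not. In md KO, PSI was 2.34% and 4.47% in the exon 3 clones and 10.1% and 10.4% in the exon 9 clones, against 3.02%, 4.32% and 2.54% in md WT.

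The other called exons were noncoding or moved the opposite way. Ext2, a heparan sulfate polymerase, had 49.5%, 52.0% and 51.4% in ES KO and 17.6%, 11.9% and 19.3% in ES WT at a 120 nt exon of a noncoding transcript (34.7 points, SE 2.98, limma adjusted p = 0.0246). Slc27a2, a very long-chain acyl-CoA synthetase, had 38.8%, 28.0% and 26.7% in ES KO at a 132 nt noncoding exon, whose including transcript was listed at 0 in all 3 ES WT samples (31.2 points, SE 3.50, limma adjusted p = 0.0306). Kdm1b, a histone H3K4 demethylase, had 16.4%, 17.5% and 19.8% in ES KO and 1.89%, 0 and 2.36% in ES WT at a 93 nt exon outside its coding sequence (16.5 points, SE 1.82, limma adjusted p = 0.0302). Fam69a, which encodes a membrane protein of the endoplasmic reticulum, had the opposite sign. Its 135 nt exon had 61.5%, 72.5% and 71.2% in ES KO and 100%, 98.5% and 100% in ES WT, a difference of -31.1 points (SE 3.42, limma adjusted p = 0.0302). It held 16 RBM10 crosslinks, 15 of them before the exon, and 1 IgG crosslink.

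**Figure D3:**
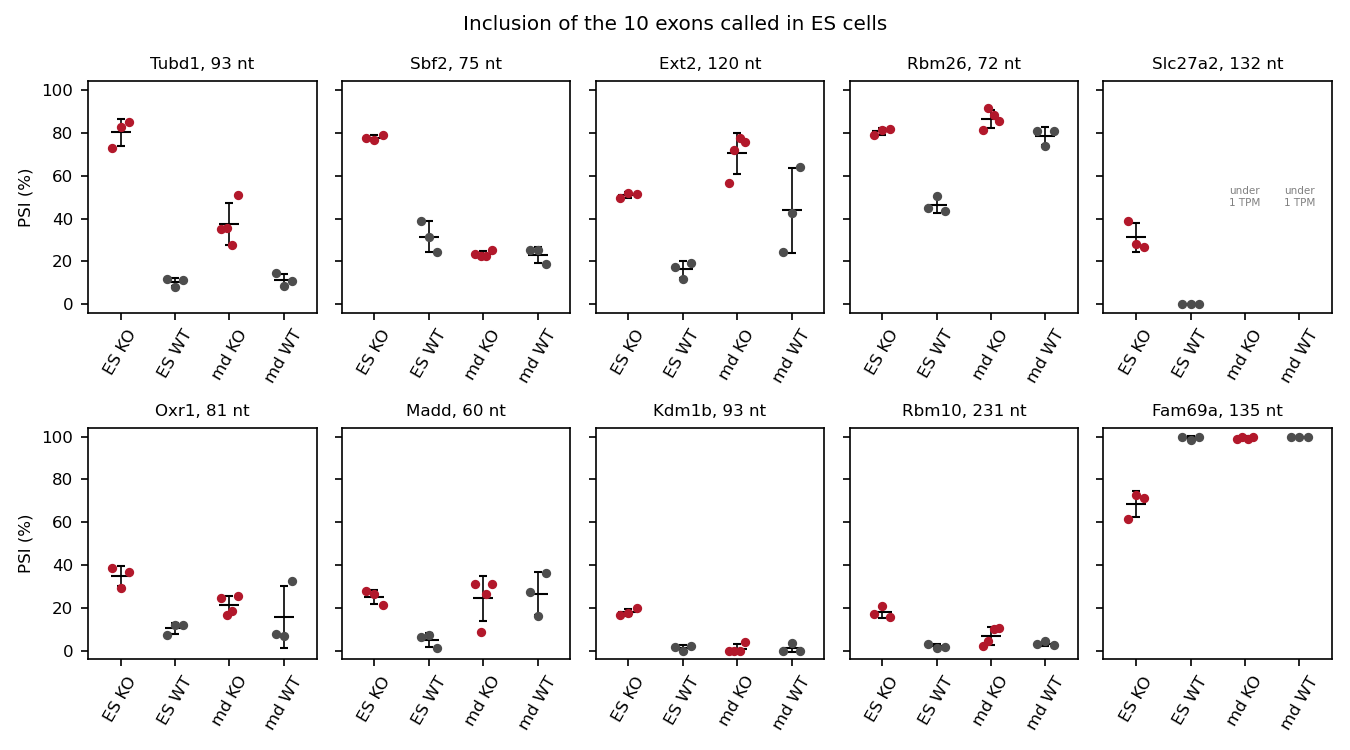
PSI in percent (y axis) of the 10 exons called in ES cells, 1 panel per exon and 1 point per sample with mean and SD in black, for ES KO, ES WT, md KO and md WT from left to right. The ES groups are apart in every panel, from 69.9 points in Tubd1 to 15.9 in Rbm10, with Fam69a lower in KO, while the md groups overlap in most panels and Slc27a2 was under 1 TPM in md cells.

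Most of the 10 exons did not separate the md groups. Sbf2 (75 nt) had 23.4%, 22.4%, 22.7% and 25.5% in md KO and 25.3%, 25.2% and 18.7% in md WT. Ext2 had 56.5%, 72.1%, 77.7% and 75.7% in md KO and 24.2%, 42.8% and 64.2% in md WT, 26.7 points apart with overlapping groups (limma adjusted p = 0.460). Oxr1 had 24.5%, 16.8%, 18.4% and 25.6% in md KO and 7.80%, 6.78% and 32.4% in md WT, where WT 3 alone lay above all KO samples. Madd had 31.3%, 8.90%, 26.5% and 31.2% in md KO and 27.4%, 16.4% and 36.1% in md WT. Fam69a was at 98.8% or more in every md library, Kdm1b at 3.88% or less, and Slc27a2 was not measured. Tubd1 and Rbm26 were the exceptions, with every md KO sample above every md WT sample.

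The summed levels of some marker lists named for other cell types did not overlap between the ES groups. Whether this RNA came from such cells or from the ES cells themselves cannot be told from bulk samples. Epithelial markers summed to 215 to 240 TPM in ES KO and 179 to 204 TPM in ES WT, with 5 of 7 at 1 TPM or more and 1 at 0 in each group. Endothelial markers summed to 10.9 to 21.3 TPM in ES KO and 22.6 to 28.9 TPM in ES WT, with 2 of 5 at 1 TPM or more and 1 at 0. Leukocyte markers summed to 11.2 to 14.5 TPM in ES KO and 17.9 to 19.3 TPM in ES WT, with 2 of 5 at 1 TPM or more and 2 at 0. Their part in the exon differences was not tested.

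In md cells no exon passed the test. Of 1666 events 0 were called with limma, as were 0% of all 4150 cassette events. An unadjusted p under 0.05 was found for 159 (9.54%), 99 higher and 60 lower in KO. Among all cassette events the share was near this, at 8.99%, with 212 higher and 161 lower. The lowest adjusted p was 0.121. The median difference was 0.20 points and the quartiles -2.40 and 2.89. Groups did not overlap for 115 events higher in KO (6.90%) and 83 lower (4.98%), against 5.64% and 4.82% of all events. With a difference of at least 10 points as well, 39 were higher (2.34%) and 17 lower (1.02%), against 1.95% and 1.25%. The exon 3 clones alone and the exon 9 clones alone gave 0 calls each, with 173 and 197 events at an unadjusted p under 0.05.

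The 10 exons of lowest p with separate groups and a difference of at least 10 points are given as values that did not pass. Shf, an adaptor protein with an SH2 domain, had 13.5%, 10.5%, 12.6% and 11.8% at a 141 nt exon in the 4 md KO lines, while its including transcript was listed at 0 in all 3 md WT samples (limma adjusted p = 0.121). Nasp encodes a histone chaperone, and its 975 nt exon separates the testicular and embryonic form from the somatic form. That exon had 17.7%, 16.2%, 19.7% and 18.8% in md KO and 27.6%, 27.7% and 29.1% in md WT (-10.05 points, SE 1.72, limma adjusted p = 0.196). In ES cells, where this form predominated, it had 83.0 ± 4.29% in KO and 84.7 ± 2.35% in WT (SD, n = 3 each).

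The other 8 had the same adjusted p of 0.196. Mical3, an actin-oxidising monooxygenase, had 96.2%, 89.7%, 90.7% and 80.4% in md KO and 68.6%, 71.1% and 70.6% in md WT at a 138 nt exon with no crosslink. Zfp451, a SUMO ligase, had 98.3%, 100%, 100% and 100% in md KO and 88.1%, 76.5% and 86.6% in md WT at a 141 nt exon. Pphln1, a subunit of the HUSH silencing complex, had 39.6%, 37.1%, 45.9% and 36.3% in md KO and 59.7%, 59.2% and 53.7% in md WT at a 207 nt exon. St7 (69 nt), BC029214 (66 nt) and Phldb1 (129 nt) lay higher in md KO by 12.8, 15.0 and 10.2 points, and Anks1 (99 nt) lower by a difference of -10.3 points. That the md KO and md WT samples did not overlap in any of these exons was a condition of their choice.

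**Figure D4:**
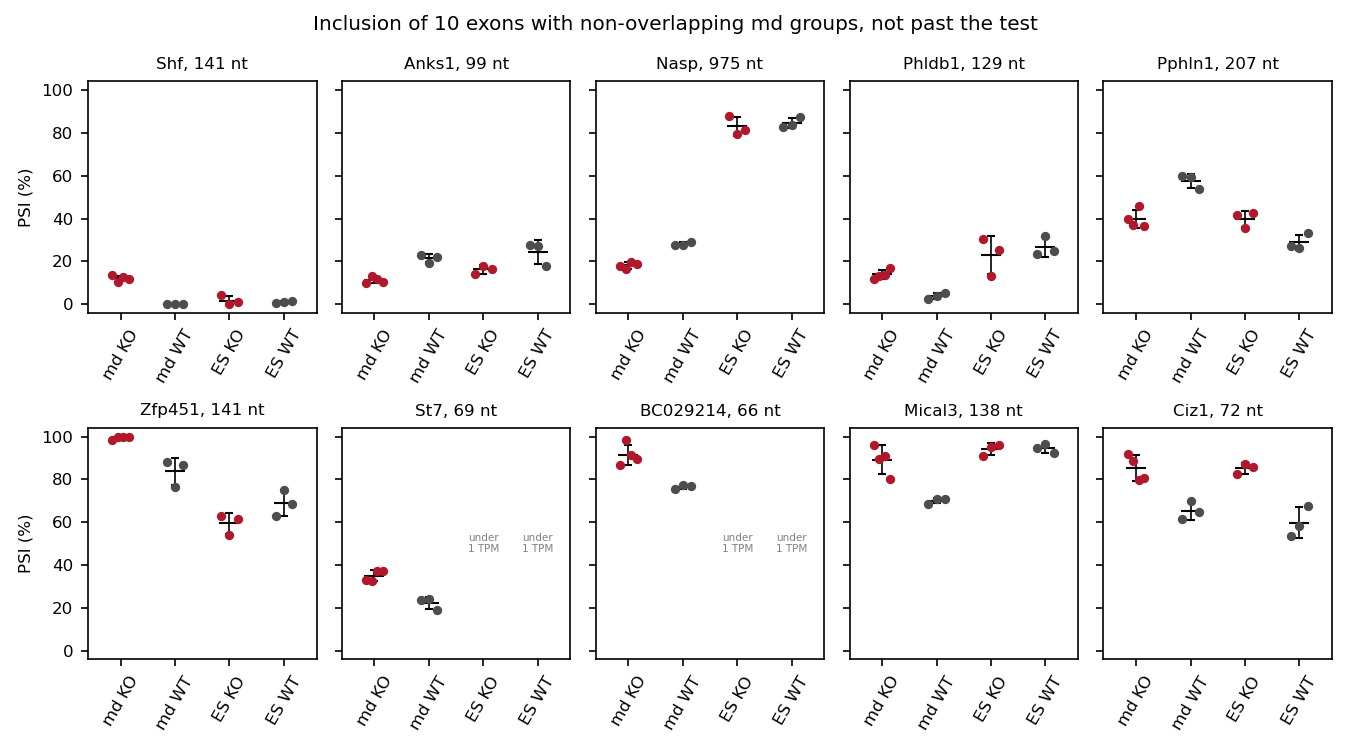
PSI in percent (y axis) of 10 exons with non-overlapping md groups that did not pass the test, 1 panel per exon and 1 point per sample with mean and SD in black, for md KO, md WT, ES KO and ES WT from left to right. The md groups differ by -17.8 (Pphln1) to 19.9 (Ciz1) points, and St7 and BC029214 were under 1 TPM in an ES library.

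A few exons were separated in both cell types. Tubd1, Mfge8, Ciz1 and Ints10 were the exons with non-overlapping groups at least 10 points apart in the same direction in md and ES cells, all higher in KO, Mfge8 and Ints10 being chosen after their values were seen. These 4 were 0.357% of the 1120 events tested in both, where 0.442% of all cassette events were so separated. The Mfge8 exon (111 nt, chr7:86288164-86288274) had 26.4%, 27.5%, 42.7% and 39% in md KO and 12.2%, 13.0% and 10.9% in md WT (21.8 points, SE 4.35, limma adjusted p = 0.196). The ES KO samples had 79.5%, 71.3% and 69.8% and the ES WT samples 51.2%, 44.8% and 51.5% (24.4 points, SE 3.93, limma adjusted p = 0.0641). It passed in neither cell type. RBM10 libraries held 18, 39, 68 and 10 crosslinks there and IgG libraries 1, 1, 0 and 0.

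The Ciz1 exon (72 nt), in a zinc-finger protein of DNA replication, had 91.9%, 88.7%, 79.6% and 80.8% in md KO and 61.4%, 70.0% and 64.8% in md WT (19.9 points). The ES KO samples had 82.4%, 87.2% and 85.9% and the ES WT samples 53.6%, 58.3% and 67.5% (25.4 points, SE 4.17, limma adjusted p = 0.0641). RBM10 libraries held 30 crosslinks, 24 of them before the exon, and IgG libraries 0. Ints10 (78 nt), a subunit of the Integrator complex, had 54.7%, 55.2%, 42.8% and 39.6% in md KO and 35.9%, 34.8% and 25.9% in md WT. Its PSI was 17.7%, 21.3% and 11.7% in ES KO and 4.45%, 2.57% and 3.62% in ES WT, from including transcripts of at most 0.348 TPM. In md cells Tubd1 had 35.2%, 35.8%, 27.7% and 51% in KO and 14.4%, 8.36% and 10.8% in WT (26.2 points, limma adjusted p = 0.196).

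Across the 1120 events tested in both cell types the KO minus WT differences were weakly related, with a Pearson r of 0.17 and a Spearman rho of 0.11 across exons, which are not independent replicates and share library depth within a cell type. Groups were separate in both cell types for 22 events higher in KO in both (1.96%) and 12 lower in both (1.07%), near the 1.95% and 1.07% of all 2714 cassette events tested in both. Another 3 (0.268%) were higher in md KO and lower in ES KO, and 10 (0.893%) lower in md KO and higher in ES KO, beside 0.332% and 0.479% of all.

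The size of the difference itself differed between cell types for 6 of the 1120 events, where 0.516% of all 2714 cassette events were called. All 6 had a lower value in md than in ES cells, as had 10 of the 14 called among all cassette events. The 75 and 96 nt Sbf2 events among the 6 share their skipping transcripts, so they are not independent. The md KO lines carry exon deletions and ES KO is 1 gene trap line. Cell type, kind of Rbm10 allele and line thus cannot be told apart. Sbf2 (75 nt) had a difference of 0.48 points in md and 46.2 in ES cells, an interaction of -45.7 points (SE 4.63, limma adjusted p = 0.0013). Its PSI in md cells was 22.4% to 25.5% in KO and 18.7% to 25.3% in WT. Tubd1 had an interaction of -43.6 points (SE 6.87) and Rbm26 of -26.4 points (SE 4.22), both at a limma adjusted p of 0.0157. The Rbm26 exon had 81.5% to 91.4% in md KO and 73.8% to 80.8% in md WT, beside 79.0% to 81.8% in ES KO and 43.4% to 50.4% in ES WT. Pphln1 went opposite ways, with -17.8 points in md and 11.0 points in ES cells (interaction -28.8, limma adjusted p = 0.0157). The number of such calls moved with single libraries, to 1 without md WT 1, 2 without md WT 3, 15 without ES KO 1 and 10 without ES WT 3.

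**Figure D5:**
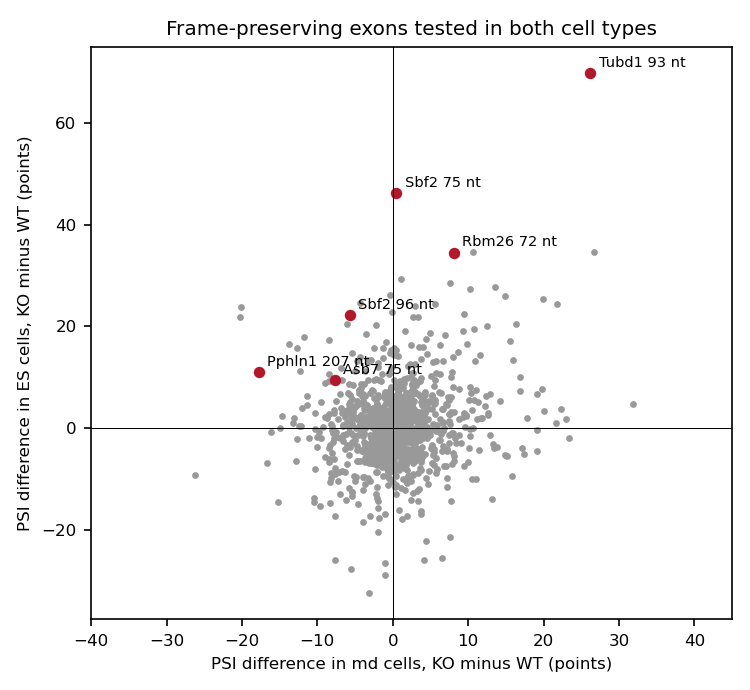
KO minus WT difference in PSI, in points, in md cells (x axis) and ES cells (y axis) for 1120 frame-preserving events tested in both, with the 6 whose differences differed in red. Most points lie near 0 on both axes, and the red points lie above the diagonal, from Sbf2 at 0.48 and 46.2 to Pphln1 at -17.8 and 11.0.

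The share of exons separated upwards in KO was highest with 20 or more RBM10 crosslinks, whether these lay upstream or in the exon. Over all cassette events, KO was higher without overlap for 5.64% in md and 11.2% in ES cells, and lower for 4.82% and 10.2%. Other cassette exons were not split by crosslinks, so whether the trend is particular to frame-preserving exons was not tested. In md cells, groups were apart with KO higher for 3.65% of 301 events with 0 upstream crosslinks, 7.29% of 535 with 1 to 4, 7.0% of 586 with 5 to 19 and 9.84% of 244 with 20 or more. KO was lower for 7.31%, 4.49%, 5.12% and 2.87% in the same order. In ES cells KO was higher for 8.37% of 406, 12.8% of 460, 12.1% of 463 and 16.5% of 188 events, and lower for 11.8%, 8.26%, 11.0% and 8.51%. The median difference in md cells was -0.29 points without upstream crosslinks and 0.79 with 20 or more, and in ES cells 0.23 and -0.06. Crosslink counts moved with expression, the median event level being 10.3, 11.8, 17.5 and 25.2 TPM in md cells and 6.65, 10.3, 13.8 and 21.4 TPM in ES cells over the 4 classes. Counted within the exon, the share with KO higher was 14.7% of 75 md events and 22.4% of 49 ES events with 20 or more crosslinks, against 6.30% of 524 and 9.72% of 597 with 0. KO was lower for 6.67% of these md and 8.16% of these ES events with 20 or more, against 4.39% and 10.6% with 0. Counted after the exon it was 10.2% of 128 md and 12% of 100 ES events with 20 or more, against 5.54% of 415 and 10.3% of 496 with 0, and the highest ES share was 13.8%, with 5 to 19. The higher share with KO higher was thus not particular to upstream counts. Within the exon the RBM10 libraries did not detectably exceed the IgG background, so counts there need not reflect RBM10 contacts. The median event level with 20 or more in the exon was 32.3 TPM in md and 25.9 TPM in ES cells. The part of expression in these shares was not tested.

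Of 7 genes reported as RBM10 splicing targets, 2 had frame-preserving exons here, Numb and Rbm10. Numb encodes an inhibitor of Notch signalling, and its cassette exon is a known target in human cells. The 147 nt exon (chr12:85138147-85138293) had 13.6%, 14.5%, 25.8% and 20.2% in md KO and 19.8%, 18.7% and 12.2% in md WT, a difference of 1.63 points (SE 3.53, limma adjusted p = 0.927). The values were 48.8%, 48.5% and 64.6% in ES KO and 47.4%, 52.4% and 61.1% in ES WT, 0.34 points apart (SE 5.90, limma adjusted p = 0.982). The groups overlapped in both. It held 8 RBM10 crosslinks and 0 IgG crosslinks. The 75 nt Numb exon was at 95.5% or more in all libraries, with 12 RBM10 crosslinks.

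In the gene lists, 0 events were called in either cell type except for Rbm10 in ES cells. Over all cassette events, groups were separate with KO higher for 11.2% and lower for 10.2% in ES cells, and for 5.64% and 4.82% in md cells, and the lists' counts are read beside these shares. Of 26 events in splicing factors and RNA-binding proteins tested in ES cells, 1 (Rbm10) was called, 5 had separate groups with KO higher and 3 with KO lower, at a median of 0.13 points. In md cells 0 of 28 were called, with a median of 1.32 points. Membrane traffic genes had 0 of 30 events called in ES cells, 9 separate with KO higher and 1 lower, at a median of 2.33 points beside 0.01 for all events. In md cells they had 5 and 2 of 33, at -0.27 points. Chromatin and transcription genes had 0 of 47 called in ES cells, 9 higher and 5 lower, and 0 of 54 in md cells, 2 and 4. Cytoskeletal genes had 0 of 29 in ES and 0 of 35 in md cells, adhesion and junction genes 0 of 19 and 0 of 21, and signalling genes 0 of 30 and 0 of 38. Apoptosis, cell cycle and repair genes had 0 of 11 and 0 of 12, and Notch pathway genes 0 of 2 in each. In ES cells 225 of all 1517 frame-preserving events (14.8%) had an unadjusted p under 0.05, beside 15.0% of all cassette events.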

How the data were processed

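Groups follow the sample titles, and the exon deleted in each clone the design text. The labels do not say whether the 3 WT md samples, or the 3 samples of an ES line, were separate cultures, so their spread may be technical. RNA-seq tables as deposited hold TPM per transcript, 1 table per cell type, so read depth is unknown. ICLIP tables as deposited hold counts of crosslinks per position, mapped to mm9 per the design text. The submitters' processing notes name mm9 and mm10 without a role. The quantifier, its annotation and the treatment of duplicates: not given in the sources used here. Of 100249 transcripts 84877 (84.7%) matched GENCODE vM1 by identifier.

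PSI of cassette events with a mean of 5 to 95% was tested with limma 3.58.1 in R 4.3.3 (empirical Bayes, trended prior, 2-sided), with Benjamini-Hochberg adjustment over all cassette events of a comparison. The difference between cell types was a contrast in 1 fit. Crosslinks in each exon with 100 nt of intron on each side, same strand, were tested with edgeR 4.0.16 (filterByExpr, library totals). DESeq2 1.42.0 was an alternative. Both fits were also run on simulated data, and no result above rests on these runs. The crosslink simulation raised nearly all exons in RBM10, so it cannot measure false calls. Other tools were pysam 0.24.0, matplotlib 3.10.9, scipy 1.17.1, pandas 2.3.3, numpy 2.4.6 and Python 3.11.15. RBM10 and IgG libraries of the same number belong to the same replicate per the design text, and their deviations correlated at 0.11, 0.11, 0.12 and -0.05.

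The exons and gene lists were chosen with earlier results of these data known. Named exons were up to 15 called per direction and cell type, otherwise up to 10 of lowest p with separate groups at least 10 points apart, exons of reported targets, the crosslinked exons of lowest p and highest count and those lower in RBM10, and those of the cell type difference. Sequences came from the mm9 reference genome.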

Additional observations from a re-analysis of the deposited data

Results flagged for a closer look

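Among 62 groups of 4 samples examined for named exons, 7 had 1 sample far from the other 3. Chance alone gives about 1 in 20, but not where the other 3 values are tied at 0 or 100%, as in 5 of the 7, since any departure then stands out. In md KO these were the Zfp451 exon at 98.3% in KO1, with 100% in the other 3, the Kdm1b exon at 3.88% in KO4, with 0 in the others, and the 75 nt Numb exon at 97.5% in KO4, with 100% in the others. In IgG libraries the Uba3 exon had 0.452 crosslinks per 1000000 (CPM) in IgG 2 and 0 in the others, Acbd4 1.04 in IgG 1 and 0 in the others, and Cbfb 6.22 in IgG 1 and at most 0.903 in the others. Plec had 88.6 CPM in IgG 4 and 152 to 163 in the others.

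The KO minus WT difference differed between md and ES cells for 6 exon events by the limma interaction. These were Sbf2 75 nt (-45.7 points, adjusted p = 0.0013), Tubd1 (-43.6), Pphln1 (-28.8), Sbf2 96 nt (-27.9, adjusted p = 0.0210), Rbm26 (-26.4) and Asb7 75 nt (-17.2, adjusted p = 0.0443). Asb7, an ankyrin repeat protein, had 14.4% to 21.5% in md KO and 22.6% to 27.4% in md WT, but 11.7% to 16.7% in ES KO and 2.70% to 7.95% in ES WT. The 96 nt Sbf2 exon had 1.20% to 7.18% in md KO and 6.86% to 16.3% in md WT. In this contrast cell type, kind of Rbm10 allele and line cannot be told apart.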

How the results depend on the processing

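In md cells the count of called events stayed 0 except on a logit scale with a pseudocount of 0.1 TPM and with no limit on mean PSI, each giving 1, the Shf exon. In ES cells it was 6 on that logit scale, 6 with no limit on PSI, 5 with no trend, 1 with any TPM above 0 and 0 with the replicate block, against 10. It was 12 with a pseudocount of 0.5 and 11 at 5 TPM or more, of which 8 and 4 were among the 10. Replicate numbers did not pair the RNA-seq samples, with correlations of -0.04, 0.04 and -0.05 in md and 0.06, -0.09 and -0.00 in ES cells. Leaving out 1 library gave 0 in every md case and 0 to 5 in ES cells. Of 144 refits of the 10 ES exons 55 passed and 89 did not.

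The cell type difference gave 3 calls on the logit scale, 0 with the replicate block and 1 to 15 without 1 library, against 6. Crosslink calls, 67 in the report, were 40 with TMM factors, 60 with DESeq2, 60 with the replicate block, 631 at 10 crosslinks, 487 at 1 and 21 with each position counted once. They were 21 with 50 nt and 151 with 200 nt of intron, and 50 to 117 without 1 library. Settings added after the data were seen gave 142 in pairs 1 and 2 alone, 120 with at least 5 IgG crosslinks, and 19, 11 and 13 for the upstream, exon and downstream regions alone. Signs changed for Flna within the exon (-0.25) and for the 240 nt Actb exon with TMM factors (-0.40) and within the exon (-1.18). The causes were not tested. IgG 3 and IgG 4 limit the crosslink test by their depth, and low event TPM limits PSI.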
